A study of Mus musculus with 13 samples.

Results

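The 10 genes that free cholesterol in lysosomes or move it out of cells followed here in mouse endometrium were Lipa, Npc1, Npc2, Scarb2, Nr1h3, Abca1, Abcg1, Apoe, Pltp and Scarb1. Each was represented by the array feature that carried its symbol and no other, the one with the highest mean over all mice where several did. All 10 had exactly 1 such feature, so the 10 genes are 10 of 65929 features and 10 of 30142 genes that have a feature with a single symbol. The genes were chosen by name, with the differences between the same groups already in view from earlier results of these data, so the values below describe them and are not independent support for any direction.

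Expression was measured on Affymetrix arrays in endometrium scraped from the uterus of 13 female C57BL/6 mice, 1 array per mouse. Every mouse, controls included, had both ovaries removed when 6 to 8 weeks old and was then treated for 12 weeks. The control group (CON, n = 3) ate normal chow and had no pellet. The E2 group (n = 4) ate chow and carried a pellet under the skin that releases 17-β estradiol, the HD group (n = 3) ate a high-fat diet without a pellet, and the MIX group (n = 3) had both the pellet and the high-fat diet. The animals thus lacked ovarian hormones of their own, and the pellet was compared with that state and not with a normal cycle. The study set out to describe transcript changes under estrogen, high-fat diet or both.

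Cells take up cholesterol esters in lipoproteins and deliver them to lysosomes, where an acid lipase splits them and NPC proteins pass the free cholesterol on. Excess cholesterol is turned in part into oxysterols, which activate liver X receptors, and these switch on transporters that hand cholesterol to apolipoproteins and high-density lipoprotein (HDL). The whole route is very active in macrophages, which clear dead cells and lipoproteins and are among the resident cells of the uterus.

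The sequences just before the transcription start of 4 of the genes are shown because Lipa, Npc2 and Scarb2 gave the clearest differences between groups and because Abca1 is the textbook target of liver X receptors. They are the 250 bases upstream of the start in RefSeq's annotation of GRCm38.p6, all on the minus strand, at chr19:34527475-34527724 for Lipa, chr12:84773113-84773362 for Npc2, chr5:92505658-92505907 for Scarb2 and chr4:53159896-53160145 for Abca1. Capitals mark 3 motifs on either strand. They are CACGTG, which the lysosomal regulator TFEB and other E-box factors bind, the GC box with the letters GGGCGG, and the TATA box with the letters TATAAA.
Lipa: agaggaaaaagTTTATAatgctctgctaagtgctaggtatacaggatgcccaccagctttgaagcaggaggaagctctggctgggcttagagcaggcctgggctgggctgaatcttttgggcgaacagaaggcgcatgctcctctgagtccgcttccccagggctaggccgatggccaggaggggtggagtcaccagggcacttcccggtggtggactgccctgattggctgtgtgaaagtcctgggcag
Npc2: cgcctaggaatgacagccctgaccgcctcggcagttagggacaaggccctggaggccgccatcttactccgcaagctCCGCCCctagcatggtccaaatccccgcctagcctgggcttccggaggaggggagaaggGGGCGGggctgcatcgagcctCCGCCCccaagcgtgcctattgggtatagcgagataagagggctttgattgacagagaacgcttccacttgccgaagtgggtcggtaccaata
Scarb2: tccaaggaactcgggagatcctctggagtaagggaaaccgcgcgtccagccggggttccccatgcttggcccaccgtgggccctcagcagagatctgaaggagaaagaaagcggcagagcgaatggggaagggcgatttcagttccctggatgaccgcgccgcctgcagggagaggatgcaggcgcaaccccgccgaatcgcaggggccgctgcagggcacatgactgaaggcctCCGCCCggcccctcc
Abca1: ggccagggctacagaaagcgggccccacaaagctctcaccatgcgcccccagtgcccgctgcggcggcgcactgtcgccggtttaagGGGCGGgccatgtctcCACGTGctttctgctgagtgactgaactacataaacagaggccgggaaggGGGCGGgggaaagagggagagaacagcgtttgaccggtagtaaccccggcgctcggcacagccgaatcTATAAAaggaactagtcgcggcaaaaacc

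Windows were at hand for 7 of the 10 genes, 10 windows in all with alternative starts, of 32851 windows in the table. CACGTG stood in 1 gene's window, that of Abca1, 147 bases before its start, and in 6.02% of all windows. The longer form TCACGTGA, which contains it, was in none of the 10, against 0.785% of all windows, and neither was that form with a further G before and C after it (0.24%). No window of the 10 held the single site AGGTCA, which 14% of all windows held. An exact direct repeat of that site at 4 bases' distance, a form that liver X receptors bind, was in none of the 10 and in 0.0152% of all windows. The exact palindromic estrogen response element was likewise in none, against 0.0639%. Exact forms this rare would seldom appear in 10 windows. Imperfect copies were not searched, so their absence cannot tell whether a receptor binds there. The GC and TATA boxes were added after the sequences had been seen. The GC box was in the windows of Pltp, Abca1, Scarb2 and Npc2 and in 32.7% of all windows. The letters TATAAA were in those of Abca1, Apoe and Lipa and in 12.4% of all windows. They stood 29 bases before the start in Abca1, but 96 in an Apoe window and 239, on the opposite strand, in Lipa. Both strands were searched, and the matches describe the letters only.

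All 10 genes lay above the array's median in all 13 mice, with mean percentiles among features from 77.6 for Nr1h3 to 94.9 for Scarb2. Epithelial markers such as Krt8 and Epcam were high in every mouse (mean of 11 markers 9.79 to 10.3 on the log2 scale), as were stromal markers (7.93 to 9.67). Of 7 measured fat cell markers 5 lay above the median of all features, Lipe at a mean of 7.25 and Plin4 at 5.54 among them, whereas Adipoq, a hormone made by fat cells, was at 3.34. On the first principal component, which held 33.4% of the variance, MIX mouse 3 stood apart, and MIX mouse 2 did so on the second (15.2%). All 3 MIX mice carried lettered animal codes, while CON, E2 and HD held 1 lettered mouse each and 7 numbered mice between them. The labels do not say what the codes stand for, so the code style was a term in the fit. In these bulk samples, fewer cells of a type and less RNA per cell cannot be told apart. Differences below are from that fit (limma, all 13 mice), in log2 units with their standard error (SE), and a positive value means higher in the group named first.

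No gene of the 10 passed an adjusted p of 0.05 in limma in any of the 8 comparisons. In E2 against CON and in HD against CON no feature on the array passed. The same test called 2 features (0.00303%) in MIX against CON, 3 (0.00455%) in MIX against HD, 0 in MIX against E2, 11 (0.0167%) for the pellet averaged over diets, and 0 for the diet averaged over pellet states and for the interaction. Below that threshold, Lipa, Npc2, Scarb2, Apoe and Abcg1 were higher with the pellet at an unadjusted p under 0.05, averaged over diets, and the other 5 overlapped widely between groups or rested on single mice.

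**Figure D1:**
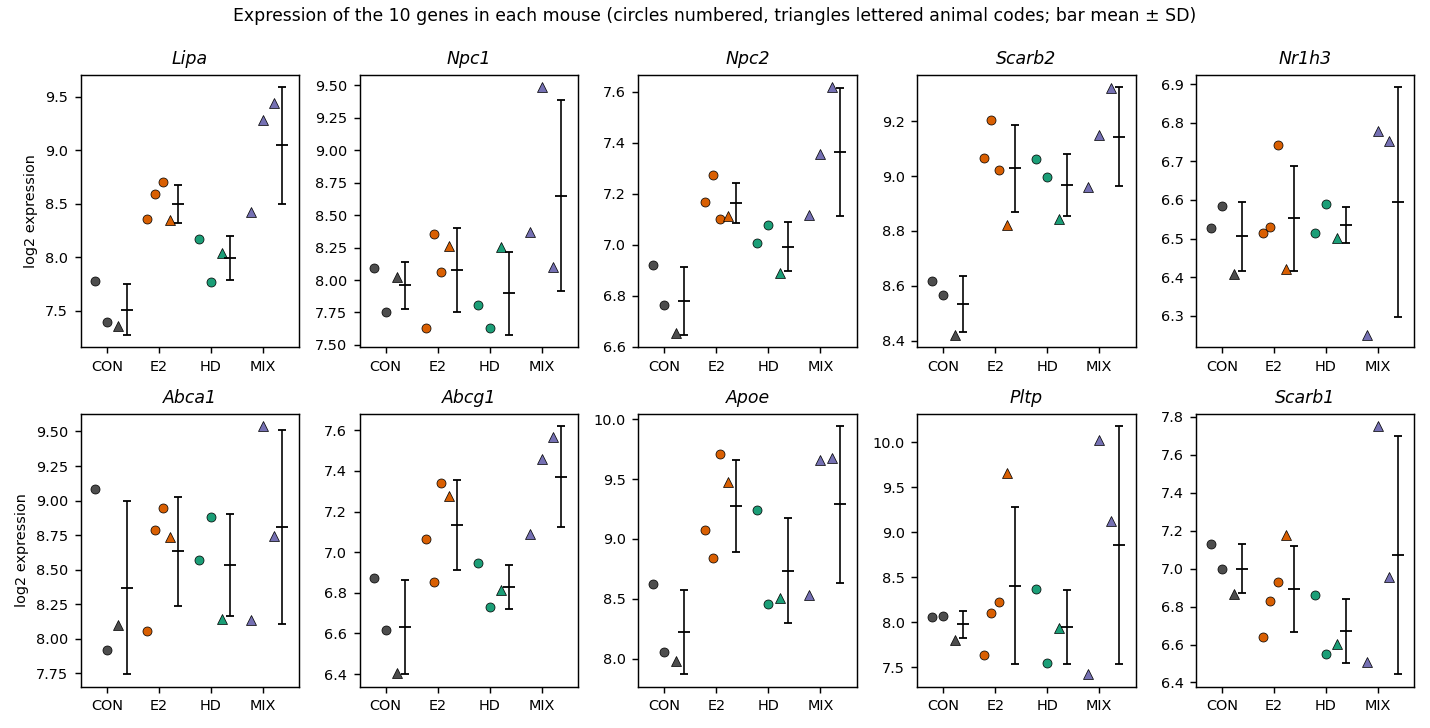
Log2 expression of each gene (vertical axis) in each mouse by group (horizontal axis). Circles are mice with numbered codes, triangles mice with lettered codes, and the black bar beside each group is its mean ± SD. Scarb2 is lower in the 3 CON mice than in all 10 treated mice, Lipa and Npc2 overlap between CON and HD, and the highest Npc1 and Scarb1 values are those of MIX mouse 2.

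Lipa encodes lysosomal acid lipase, which splits cholesterol esters and triglycerides inside the lysosome. Its log2 values were 7.78, 7.39 and 7.35 in CON, 8.36, 8.59, 8.71 and 8.35 in E2, 8.17, 7.77 and 8.04 in HD, and 8.43, 9.28 and 9.44 in MIX. Every pellet-bearing mouse, on either diet, was above every mouse without a pellet, and MIX mice 2 and 3 were the highest. Lipa was higher in E2 than in CON by 0.98 (SE 0.23), which is 1.97-fold, with an unadjusted p of 0.00137 and an adjusted p of 1 in limma. In MIX it exceeded CON by 1.62 (SE 0.28), or 3.08-fold (limma, adjusted p 0.184), and HD by 1.14 (SE 0.28; limma, adjusted p 0.561). HD lay above CON by 0.48 (SE 0.24) and MIX above E2 by 0.64 (SE 0.27), both with an adjusted p of 1 in limma. Averaged over diets the pellet difference was 1.06 (SE 0.18), or 2.09-fold (limma, adjusted p 0.133).

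Npc2 is the small soluble protein that picks up cholesterol in the lysosome and passes it to the membrane protein NPC1. Its values were 6.92, 6.76 and 6.66 in CON, 7.17, 7.27, 7.10 and 7.11 in E2, 7.01, 7.08 and 6.89 in HD, and 7.12, 7.36 and 7.62 in MIX. As with Lipa, the 7 mice with a pellet all lay above the 6 without, but the gap was narrow, since HD mouse 2 reached 7.08 and E2 mouse 3 was at 7.10. The E2 difference from CON was 0.37 (SE 0.11, unadjusted p 0.00562, adjusted p 1 in limma) and the MIX difference from CON 0.67 (SE 0.13; limma, adjusted p 0.251). MIX was above HD by 0.46 (SE 0.13; limma, adjusted p 0.646) and above E2 by 0.30 (SE 0.13), and HD was above CON by 0.21 (SE 0.11), the last 2 with an adjusted p of 1 in limma. The pellet difference averaged over diets was 0.42 (SE 0.08; limma, adjusted p 0.189).

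Scarb2 encodes LIMP-2, an abundant protein of the lysosomal membrane that carries the lipid hydrolase glucocerebrosidase to lysosomes. Its values were 8.62, 8.57 and 8.42 in CON, 9.07, 9.21, 9.02 and 8.82 in E2, 9.06, 9.0 and 8.84 in HD, and 8.96, 9.15 and 9.32 in MIX. All 10 treated mice were above all 3 CON mice, and the E2, HD and MIX groups overlapped one another. The diet alone gave a difference from CON of 0.43 (SE 0.09, unadjusted p 0.000744), close to that of the pellet alone (0.48, SE 0.09, unadjusted p 0.000228). By unadjusted p it was the 10th feature of the whole array in HD against CON and the 8th in E2 against CON, and both adjusted p values were 1 in limma. MIX was above CON by 0.75 (SE 0.11), or 1.69-fold, with an adjusted p of 0.102 in limma and an 18th place. It was above HD by 0.32 (SE 0.11; limma, adjusted p 0.685) and above E2 by 0.28 (SE 0.10; limma, adjusted p 1). The averaged differences were 0.40 (SE 0.07; limma, adjusted p 0.136) for the pellet and 0.36 (SE 0.07; limma, adjusted p 1) for the diet, and Scarb2 held 7th place in the latter. In this gene the lettered mice were lower than the numbered ones by an estimated 0.21 (lettered minus numbered -0.21, SE 0.08; limma, adjusted p 0.896). With no term for the code style its MIX difference from CON was 0.61 and its MIX difference from E2 was 0.12.

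Apoe encodes apolipoprotein E, a secreted acceptor of cholesterol that macrophages make in quantity. Its values were 8.62, 8.05 and 7.98 in CON, 9.08, 8.84, 9.71 and 9.47 in E2, 9.24, 8.45 and 8.51 in HD, and 8.53, 9.66 and 9.67 in MIX. The E2 mice were all above the CON mice, whereas HD mouse 1 was as high as an E2 mouse and MIX mouse 1 as low as a CON mouse. The difference from CON was 1.05 (SE 0.33, 2.07-fold, unadjusted p 0.0104) in E2 and 0.52 (SE 0.36) in HD, both with an adjusted p of 1 in limma, and 1.15 (SE 0.41; limma, adjusted p 0.48) in MIX. MIX exceeded HD by 0.64 (SE 0.41; limma, adjusted p 0.746), and the pellet difference averaged over diets was 0.84 (SE 0.26; limma, adjusted p 0.361).

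Abcg1 encodes the transporter that loads cholesterol onto HDL particles. Its values were 6.87, 6.62 and 6.41 in CON, 7.07, 6.85, 7.34 and 7.28 in E2, 6.95, 6.73 and 6.81 in HD, and 7.09, 7.46 and 7.57 in MIX. MIX lay above CON and above HD without overlap, and E2 mouse 2 just overlapped CON. The MIX difference from CON was 0.77 (SE 0.19; limma, adjusted p 0.345), that from HD 0.57 (SE 0.19; limma, adjusted p 0.685), and the E2 difference from CON 0.50 (SE 0.16, unadjusted p 0.00997, adjusted p 1 in limma). Averaged over diets the pellet difference was 0.54 (SE 0.12; limma, adjusted p 0.243).

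The other 5 genes showed no such order. Abca1, the transporter that hands cholesterol to lipid-poor apolipoproteins, ranged from 7.92 to 9.08 in CON, 8.06 to 8.95 in E2, 8.15 to 8.88 in HD and 8.14 to 9.54 in MIX. CON alone spanned most of that range, since CON mouse 1 was at 9.08 and CON mouse 2 at 7.92. MIX minus CON was 0.61 (SE 0.45; limma, adjusted p 0.765), with a 95% interval of -0.40 to 1.62, and 0.25 without MIX mouse 2. Nr1h3, the gene of liver X receptor alpha, had nearly level group means of 6.51 ± 0.09 (SD, n = 3) in CON, 6.55 ± 0.14 (n = 4) in E2, 6.53 ± 0.05 (n = 3) in HD and 6.59 ± 0.30 (n = 3) in MIX. Its pellet difference averaged over diets was 0.09 (SE 0.09), and the 95% interval ran from -0.12 to 0.30.

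Npc1, the membrane partner of NPC2, averaged 7.96 ± 0.18 in CON, 8.08 ± 0.32 in E2, 7.90 ± 0.32 in HD and 8.65 ± 0.74 in MIX. Its MIX mice were at 8.37, 9.49 and 8.10, and the lowest of them lay just above the highest CON mouse, which printed to the same 8.10. MIX minus CON was 0.50 (SE 0.36; limma, adjusted p 0.762) and came to 0.08 without MIX mouse 2. The 2 NPC proteins act in the same step, but the order of the mice differed between their genes.

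Pltp, which moves phospholipid between lipoproteins, had values from 7.81 to 8.07 in CON and from 7.55 to 8.37 in HD, but from 7.64 to 9.65 in E2 and from 7.42 to 10.02 in MIX. E2 mouse 4 and MIX mice 2 and 3 were the high ones, and all 3 have lettered codes. Pltp in E2 against CON was -0.07 among numbered mice and 1.85 among lettered mice, where each group had 1 mouse. Scarb1, the HDL receptor SR-BI, had group means of 7.0 ± 0.13 in CON, 6.89 ± 0.22 in E2, 6.67 ± 0.17 in HD and 7.07 ± 0.63 in MIX. It was the gene that lay lower in HD than in CON without overlap (6.86, 6.55 and 6.60 against 7.13, 7.0 and 6.87), by a difference of -0.33 (SE 0.26; limma, adjusted p 1). In that pair HD mouse 1 and CON mouse 3 were almost level. The averaged pellet differences were 0.35 (SE 0.23) for Npc1, 0.35 (SE 0.29) for Abca1, 0.52 (SE 0.44) for Pltp and 0.13 (SE 0.19) for Scarb1, with limma adjusted p values from 0.623 to 0.842. Without MIX mouse 2 they came to 0.14, 0.16, 0.23 and -0.03 in that order.

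**Figure D2:**
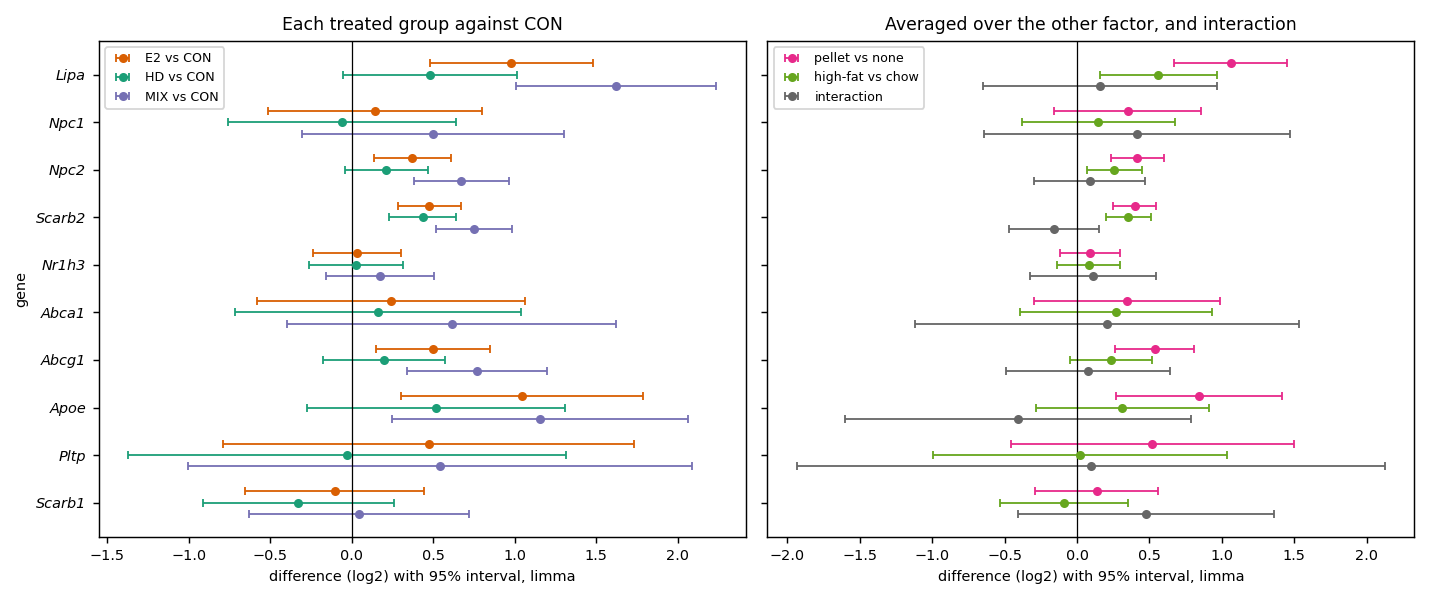
Fitted differences (horizontal axis, log2, points) with 95% intervals (bars) for each gene (vertical axis); the left panel sets E2, HD and MIX against CON, and the right panel gives the averaged pellet and diet differences and their interaction. Intervals for Lipa, Npc2, Scarb2, Apoe and Abcg1 lie above 0 for the pellet, and every interaction interval includes 0.

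Counted over the set, 9 of 10 genes had a positive difference in E2 against CON, where 46.5% of all features did. With the replicate number as a block the count was 6, as Abca1, Nr1h3 and Pltp turned negative. Of the 10, 4 (Apoe, Npc2, Lipa and Scarb2) had no overlap with CON in the higher direction, against 3.01% of all features, and 5 were higher with an unadjusted p under 0.05, against 1.93%. The median difference of the 10 was 0.42 and that of all features -0.01. In HD against CON 7 of 10 were positive (57.2% of all features), 1 was without overlap higher (5.58%), 1 without overlap lower (2.96%) and 1, Scarb2, was higher with an unadjusted p under 0.05 (1.99%). The median was then 0.18. In MIX against CON all 10 were positive (42.5% of all features), 5 had no overlap in the higher direction (Abcg1, Npc1, Npc2, Lipa and Scarb2; 5.52% of all features), and 5 were higher with an unadjusted p under 0.05 (3.7%), with a median of 0.64 against -0.03 for all features. E2, HD and MIX were set against the same 3 CON mice, so these counts share their controls.

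Against the other treated groups MIX was also the higher one, with median differences over the 10 genes of 0.51 from HD and 0.27 from E2. All 10 genes had positive differences in MIX against HD (37.5% of all features), with 3 without overlap (Abcg1, Npc2 and Lipa; 3.47%) and 4 higher with an unadjusted p under 0.05 (2.41%). In MIX against E2 all 10 were also positive (43.7%), but none was without overlap (1.5% of all features were, in the higher direction), and 3, Lipa, Npc2 and Scarb2, were higher with an unadjusted p under 0.05 (1.25%). The counts of positive differences leaned on MIX mouse 2. Without it they were 6 of 10 in MIX against E2, where Apoe, Npc1, Pltp and Scarb1 turned negative, 8 in MIX against CON and 9 in MIX against HD. With array weights the counts were 7, 8 and 9 in that order. Among lettered mice alone, 7 of 10 were positive in MIX against E2. For the pellet averaged over diets, Lipa and Npc2 were the 2 genes whose 7 pellet mice all exceeded the 6 others, as did 0.344% of all features. All 10 averaged pellet differences were positive (38.9% of all features) and 5 reached an unadjusted p under 0.05 (3.73%). For the diet averaged over pellet states 9 of 10 were positive (50.7%), 0 were without overlap (0.0228% of all features were, in the higher direction) and 3 were higher with an unadjusted p under 0.05 (1.79%). Those 3 were the lysosomal genes Scarb2, Lipa (0.56, SE 0.18) and Npc2 (0.26, SE 0.09), each with an adjusted p of 1 in limma. The number of positive diet differences fell to 6 with array weights and to 7 without MIX mouse 2. The number of positive averaged pellet differences was 9 in either of these settings.

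Whether the pellet acted differently on the 2 diets was asked with the interaction, the pellet difference on high-fat diet minus that on chow. It ranged from -0.41 for Apoe to 0.48 for Scarb1, was positive in 8 genes (40.4% of all features), and none of the 10 had an unadjusted p under 0.05, where 2.1% of all features did. The number of positive interactions fell to 4 with array weights, and also to 4 without CON mouse 1 or without MIX mouse 3. The intervals were wide. For Lipa the interaction was 0.16 (SE 0.36, 95% interval -0.65 to 0.97), for Apoe -0.41 (SE 0.54, -1.60 to 0.79), for Scarb1 0.48 (SE 0.40, -0.41 to 1.36) and for Scarb2 -0.16 (SE 0.14, -0.47 to 0.15). The sign of the Lipa and Apoe values turned under other settings (Lipa -0.03 without MIX mouse 3, Apoe 0.57 with the replicate number as a block), while the value of Scarb1 came to 0.14 without MIX mouse 2, where 5 of the 10 were positive. The limma adjusted p was 1 for all 4.

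Single MIX mice carried much weight in these differences. MIX mouse 1 was the lowest of the 3 in 9 of the 10 genes, the exception being Npc1. Without it, Lipa passed the threshold in MIX against CON (1.93; limma, adjusted p 0.0225) and in MIX against HD (1.45; limma, adjusted p 0.0393), and Scarb2 did so in MIX against CON (0.85; limma, adjusted p 0.0337). The averaged pellet difference then passed for Lipa (1.22; limma, adjusted p 0.0148), Scarb2 (0.44; limma, adjusted p 0.0304) and Npc2 (0.48; limma, adjusted p 0.0357). Calls over all features also rose without MIX mouse 1. They numbered 40 in MIX against CON (2 with all mice), 80 in MIX against HD (3) and 224 for the averaged pellet difference (11). No label sets this mouse apart, so these values describe its weight and do not replace those from all mice. Without MIX mouse 3, which stood apart on the whole array, the MIX differences from CON were 1.43 for Lipa, 0.55 for Npc2, 0.66 for Scarb2, 0.96 for Apoe and 0.67 for Abcg1. Without MIX mouse 2 they were 1.51, 0.68, 0.75, 0.97 and 0.73 in the same order. Without E2 mouse 1, the E2 differences from CON were 1.04, 0.38, 0.48, 1.12 and 0.53.

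**Figure D3:**
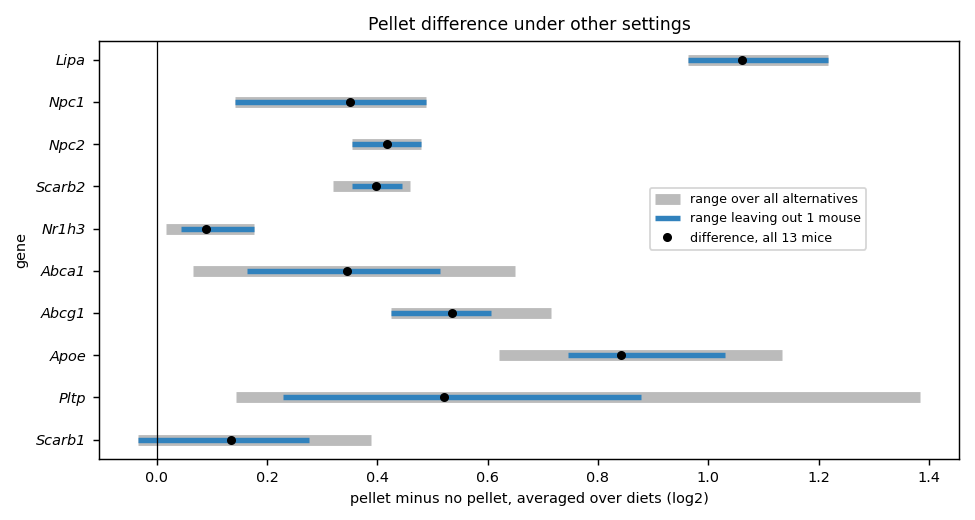
Averaged pellet difference of each gene (horizontal axis, log2; genes on the vertical axis) with all 13 mice (black points), its range when 1 mouse was left out (blue) and its range over all other settings tried (grey). Lipa, Npc2, Scarb2, Abcg1 and Apoe stay well above 0 throughout, and the range of Scarb1 crosses 0.

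Because these genes are prominent in macrophages, they were set beside a macrophage score, the mean log2 value of 19 measured markers of 20 listed (such as Adgre1, Csf1r, C1qa and Lyz2). The score ran from 6.44 to 6.83 in CON, 7.25 to 7.74 in E2, 7.09 to 7.21 in HD and 7.14 to 8.38 in MIX, so that CON lay below every other group. MIX mouse 1, at 7.14, was again the lowest of its group and MIX mouse 3 the highest of all mice. Of the 19 markers, 17 had a positive difference in E2 against CON (median 0.99, 13 without overlap higher), 16 in HD against CON (median 0.54, 8 without overlap higher) and 17 in MIX against CON (median 1.15, 12 without overlap higher and 1 lower). Of all features, 46.5%, 57.2% and 42.5% were positive in these comparisons in the same order. Without overlap in the higher direction were 3.01%, 5.58% and 5.52% of all features. None of the 19 passed the adjusted threshold in limma in these comparisons, and Cd163 lay below the array medians. The part that macrophage number plays in the differences of the 10 genes was not tested.

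Of the 10 genes, Apoe, Abcg1, Lipa, Npc2 and Scarb2 had the highest correlations with this score. Over the 13 mice Pearson's r was 0.896 for Apoe, 0.917 for Abcg1 and 0.912 for Lipa, with Spearman's rho of 0.934, 0.901 and 0.929. For r of these 3 the permutation p was 1e-05, the smallest that 100000 permutations can give, and the adjusted p over 20 values was 6.67e-05. For rho the adjusted permutation p was 0.0001 for Apoe and 0.000133 for Abcg1 and Lipa. The permutations moved mice freely between groups, so these and the following permutation p values also carry group differences that score and gene share. Npc2 (r 0.9, rho 0.841) and Scarb2 (r 0.835, rho 0.808) came next. Their adjusted permutation p was 0.000171 and 0.001 for r, and 0.00151 and 0.00286 for rho. Leaving out CON mouse 3 and MIX mouse 3, the mice farthest from the median score, gave r of 0.895 for Apoe, 0.853 for Abcg1, 0.835 for Lipa, 0.756 for Npc2 and 0.703 for Scarb2. Within the 7 numbered mice r was 0.902, 0.887, 0.904, 0.776 and 0.779 in that order, and within the 6 lettered mice 0.901, 0.932, 0.914, 0.958 and 0.916. After each group's mean was taken out, r was 0.764 for Apoe, 0.801 for Abcg1, 0.773 for Lipa, 0.711 for Npc2 and 0.474 for Scarb2, with no p computed. These 5 genes also went with scores of other cell types. With a mesothelial score of 6 markers r was 0.86 for Npc2, 0.807 for Lipa, 0.768 for Scarb2, 0.758 for Abcg1 and 0.69 for Apoe, and all 6 markers were higher with the pellet averaged over diets (median difference 0.98). With a lymphocyte score of 8 markers r was between 0.558 for Scarb2 and 0.808 for Lipa, and with the granulocyte score of 8 markers between 0.64 for Apoe and 0.795 for Npc2. With the stromal score, whose 10 markers were all higher with the pellet (median difference 0.47), r was between 0.412 for Scarb2 and 0.622 for Npc2. With a red cell score of 2 measured markers r was between 0.492 for Apoe and 0.747 for Npc2. Of these 2 markers, 1 was called higher in limma in MIX against CON, in MIX against HD and for the averaged pellet difference. Averaged pellet differences were positive in 38.9% of all features. None of the mesothelial, lymphocyte, granulocyte and stromal markers passed the adjusted threshold in limma. Whether the macrophage score follows the 5 genes more closely than the other scores do was not tested.

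The remaining 5 followed the score less. Pearson's r was 0.523 for Pltp and 0.519 for Nr1h3 (adjusted permutation p 0.106 each), 0.439 for Abca1 (0.177), 0.25 for Npc1 (0.436) and 0.18 for Scarb1 (0.547), with Spearman's rho of 0.571, 0.478, 0.379, 0.335 and 0.209. An endothelial score of 8 markers, chosen for comparison after the values had been seen, stood at 7.67 in MIX mouse 2 and between 5.18 and 6.20 in all other mice. That is the mouse with the highest Npc1, Pltp, Scarb1 and Abca1. Scarb1 had r of 0.869 with the endothelial score and Pltp 0.824 (adjusted permutation p 0.0121 and 0.006). Spearman's rho was 0.703 and 0.626 (adjusted permutation p 0.0614 and 0.0949). Without MIX mice 1 and 2 the values were 0.512 and 0.649, and among numbered mice 0.37 and 0.131, so both relations rest largely on those mice. Npc1 had r of 0.801 (adjusted permutation p 0.0868) and rho of 0.385, with r of 0.62 without MIX mice 1 and 2 and 0.585 among numbered mice. With the stromal score r was 0.804 for Pltp, 0.709 for Scarb1 and 0.557 for Npc1. A granulocyte score was highest in MIX mouse 3 (8.96) and E2 mouse 1 (7.99), stood at 6.16 in MIX mouse 2 and ran from 5.06 to 5.52 in CON. Its part in the differences was not tested.

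**Figure D4:**
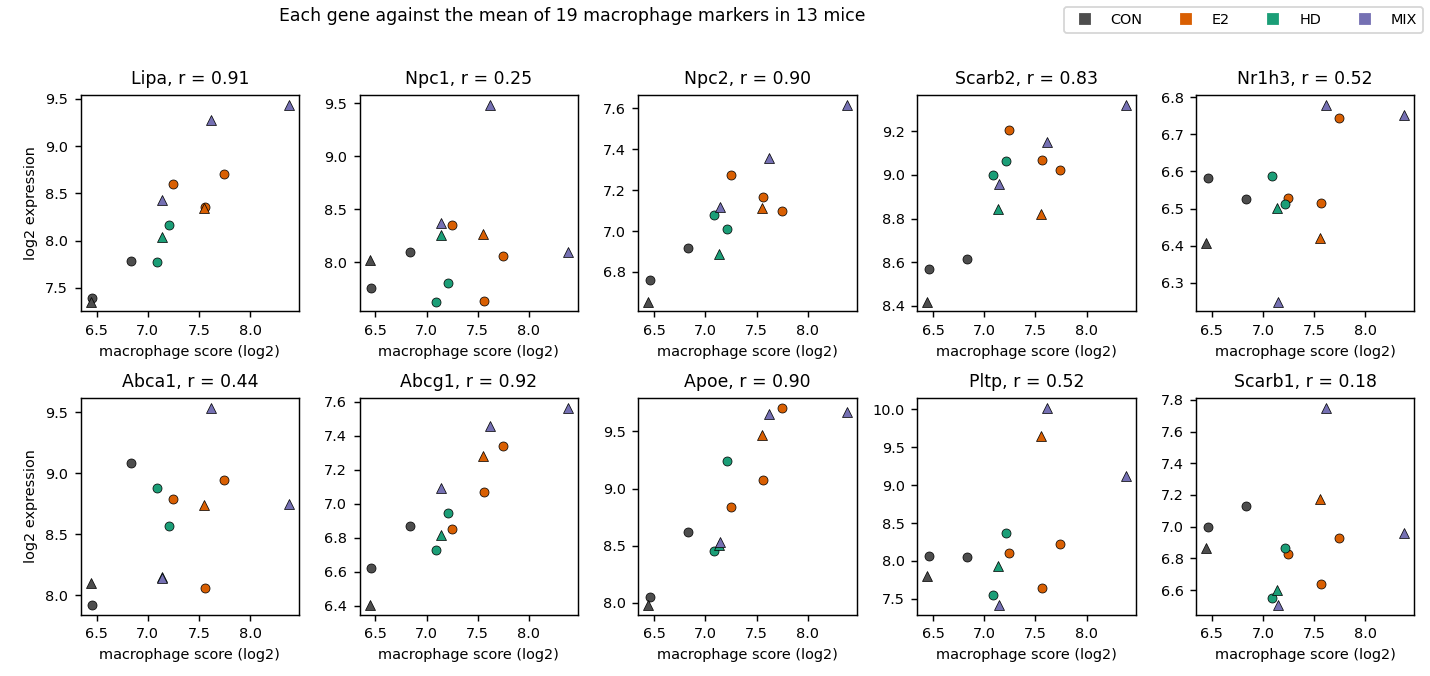
Log2 expression of each gene (vertical axis) against the macrophage score (horizontal axis, mean log2 value of 19 markers) in 13 mice, coloured by group, with circles for numbered and triangles for lettered codes and Pearson's r above each panel. Apoe, Abcg1, Lipa, Npc2 and Scarb2 climb with the score (r from 0.83 to 0.92), whereas Npc1 and Scarb1 do not line up with it (r of 0.25 and 0.18).

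Among themselves the genes fell along the same lines. The closest pairs over the 13 mice were Npc2 with Lipa (r 0.93), Apoe with Abcg1 (0.923), Abcg1 with Lipa (0.92) and Npc2 with Scarb2 (0.907), while Pltp ran with Scarb1 (0.853) and the lowest pair was Scarb1 with Scarb2 (0.019). The genes most like each by Pearson's r over 13 mice, out of 14851 named genes above the median level, were Ms4a7, C1qc and Itgax for Apoe (0.954, 0.948 and 0.947). For Abcg1 they were Itgax, C1qb and Clu (0.944, 0.943 and 0.936). Ms4a7 and the C1q genes are among the macrophage markers listed, and Itgax encodes CD11c of macrophages and dendritic cells. For Lipa the nearest were Npc2 (0.93), Ptprz1 (0.92) and Abcg1 (0.92), and for Scarb2 they were Ranbp9 (0.933), Npc2 (0.907) and Rap2a (0.907). Pltp was nearest to Cmtm3, Axl and Tmem26 (0.946, 0.943 and 0.94) and Scarb1 to Slc7a8, Mbnl1 and Scara3 (0.949, 0.948 and 0.936). These correlations describe 13 arrays that share groups and code styles.

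Lists of the wider pathway, each including the genes above that belong to it, gave 0 calls at the adjusted threshold in limma in any comparison. They are described by the averaged pellet difference and, where stated, by MIX, HD or E2 against CON. For the averaged pellet difference, 3.73% of all features were higher with an unadjusted p under 0.05. Of 22 measured genes of efflux and HDL remodelling, 17 had positive pellet differences (median 0.16) and 5 had an unadjusted p under 0.05, all higher. The leader was Clu, the gene of the lipid-binding protein clusterin, at 1.27 (SE 0.21; limma, adjusted p 0.136), and it was 1.70 (SE 0.33; limma, adjusted p 0.251) higher in MIX than in CON. Apoc1, a small apolipoprotein gene next to Apoe, was 0.48 (SE 0.15; limma, adjusted p 0.44) higher in MIX than in CON. Of 17 genes listed for the liver X receptor, its partners, cofactors and targets, 9 were positive (median 0.01). With an unadjusted p under 0.05 in limma, 3 were higher and 2 lower, so the list as a whole had no direction with the pellet. The 17 count Tom1l2, which a shared synonym put in the place of Srebf1, so Srebf1 itself was not measured. In this list Ncoa5, a nuclear receptor coactivator gene, was lower in MIX than in CON (-0.36, SE 0.09, adjusted p 0.345 in limma). The lowest difference of the list in HD against CON was that of Scd1 (-0.92, SE 0.34, unadjusted p 0.0209 in limma). In E2 against CON Scd1 was at -0.13 (SE 0.32).

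The lysosomal lists leaned to higher values. Of 17 lysosomal lipid hydrolases and carriers, 14 had positive pellet differences (median 0.11), 5 of them with an unadjusted p under 0.05 and none lower. Beside Lipa, Pla2g15, a lysosomal phospholipase, was 0.48 (SE 0.09; limma, adjusted p 0.163) higher with the pellet and 0.80 (SE 0.14; limma, adjusted p 0.184) higher in MIX than in CON. Of 26 genes of the lysosomal membrane, its proteases and the TFEB family, 23 were positive (median 0.20) and 10 had an unadjusted p under 0.05, all higher. Among them were Ctsc, the protease cathepsin C, at 0.86 (SE 0.19; limma, adjusted p 0.237) and Ctns, the cystine exporter of lysosomes, at 0.41 (SE 0.10; limma, adjusted p 0.268). The list of 26 also held Cd68, which is one of the macrophage markers. The median pellet difference over all features was -0.03, and 38.9% of them were positive.

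Of 12 lipoprotein uptake genes, 9 were positive (median 0.52), 4 with an unadjusted p under 0.05 higher and 1, the sorting receptor gene Sort1, lower (-0.46, SE 0.15; limma, adjusted p 0.378). Of 14 sterol-repressed targets of SREBP2, the factor that switches on cholesterol synthesis when cells lack sterol, 9 were positive (median 0.09), and the one with an unadjusted p under 0.05 was lower. This was Dhcr7, the last enzyme of cholesterol synthesis, at -0.23 (SE 0.09; limma, adjusted p 0.46), and at -0.50 (SE 0.14; limma, adjusted p 0.419) in MIX against CON. Of 13 genes of lipid droplets and lipid-laden macrophages, 11 were positive (median 0.48) and 6 had an unadjusted p under 0.05, all higher. Fabp5, a fatty acid carrier, was 1.22 (SE 0.27; limma, adjusted p 0.227) higher with the pellet, and Tyrobp, an adaptor of myeloid receptors that is also one of the macrophage markers, 1.55 (SE 0.37; limma, adjusted p 0.253).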

How the data were processed

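Endometrium of 13 mice was profiled on 1 array each. The deposited values are log2 expression per feature. The submitters' processing notes name RMA, which corrects background, equalises arrays over all samples and summarises probes, so small differences of dim features are compressed. Neither its version nor a genome build is stated there. Array medians were 4.48 to 4.71. Of 65929 features, 30604 had 1 symbol, 2146 several and 33179 none in the annotation table supplied.

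All features entered 1 fit of limma 3.58.1 (lmFit, eBayes; R 4.3.3) with 4 group coefficients and the style of animal code, 8 residual degrees of freedom, and Benjamini-Hochberg adjustment over all features with a two-sided threshold of 0.05. The fit was tested on simulated data. "Without overlap" means that every mouse of a group exceeded every mouse of the other. Correlations used Pearson's r and Spearman's rho with 100000 permutations of the mice, not held within groups. The genes, pathway lists and tests were chosen with earlier results of these data known. Non-member genes of a list were named if among its 3 smallest unadjusted p in MIX against CON or for the pellet. Scd1 was named later, for its value in HD against CON. The 3 genes most correlated with a member were its most alike genes. Mice are separate animals by their codes, but litters and cages are not given, so p-values cover the spread between these samples. Alternatives were other normalizations, filters, weights, blocks and leaving out each mouse.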

Additional observations from a re-analysis of the deposited data

How the results depend on the processing

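For 42 differences chosen from those above, up to 25 settings were run, 13 of which leave out 1 mouse. Of the 1001 recomputed values 990 kept their direction and their side of the threshold, 5 changed sign and 6 passed the threshold. With all mice no gene passed, so keeping the side meant only staying without a call. The 42 leave out differences that turned more often, such as Apoe in MIX against E2 (6 of 24 settings). With all mice 0 of the genes were called. Leaving out 1 mouse gave 0 to 2 calls in MIX against CON and 0 to 1 in MIX against HD. For the averaged pellet difference it gave 0 to 3. Only the setting without MIX mouse 1 gave calls, and there 40, 80 and 224 of all features were called in the same order. The other comparisons stayed at 0 in every setting run. The averaged pellet difference of Scarb1 turned to -0.0059 with array weights and ran from -0.035 (without MIX mouse 2) to 0.28 when 1 mouse was left out. The Lipa interaction ran from -0.035 (without MIX mouse 3) to 0.47 in the same way; the cause of either was not tested. Over all 10 genes and 8 comparisons, 92 of 1910 recomputed differences changed sign, 37 of them for Pltp and 0 for Scarb2.

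Mice with equal replicate numbers were not more alike than others: of 18 same-numbered pairs 5 had deviations correlated above 0.1 (median r -0.06), against 14 of 45 other pairs. The r ran from -0.285 to 0.361 in the former and from -0.42 to 0.508 in the latter. Deviations within such small groups constrain each other, so these values cannot decide whether the numbers mark a pairing. With the replicate number as a block, 0 genes were called in any comparison, and the Apoe interaction was 0.57 instead of -0.41. All 10 genes were above the array median in every mouse, but how far signal or the number of mice limits these results was not tested; differences within code style rest on 1 lettered mouse in CON, E2 and HD.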
